A study of Mus musculus with 42 samples.

Results

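The immediate early response was followed through 10 genes in the livers of 42 mice. These were the 3 Nr4a receptors (Nr4a1, Nr4a2 and Nr4a3), the AP-1 subunits Fos, Fosb and Junb, and Egr1, Ier2, Atf3 and Btg2. They are 10 of the 19758 gene names that the 6 deposited tables list between them, and each was found by its symbol. The mice were males of 6 groups with 7 mice each. WT lean and KO lean mice ate a diet with 10% of its energy as fat, and WT obese and KO obese mice ate one with 60%, mainly as lard, for 15 weeks from an age of 6 weeks. All 4 groups received vehicle (PBS with ethanol). WT obese+RvE1 and KO obese+RvE1 mice ate the 60% diet and were injected i.p. with 300 ng RvE1 on 4 consecutive days, and livers were taken on day 5 after a fast. RvE1, resolvin E1, is a lipid mediator made from eicosapentaenoic acid, and ChemR23, encoded by Cmklr1, is a receptor for it. The KO mice were made with CRISPR/Cas9 on C57BL/6J and lack ChemR23 in the whole body, so that a difference cannot be placed in 1 cell type, and WT mice were littermates. The RNA came from whole liver, in which fewer cells of a type and less RNA per cell cannot be told apart.

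Immediate early genes are switched on within minutes by signals that reach the nucleus without new protein synthesis, such as growth factors, stress, cAMP and calcium, and their mRNAs are short lived. CREB binds cAMP response elements in many of their promoters and SRF binds CArG boxes. Many of the proteins are transcription factors that act on a later wave of genes. In liver, members of the Nr4a family (Nur77, Nurr1 and Nor1, orphan nuclear receptors) respond to glucagon and fasting, and Fos, Junb, Egr1 and Atf3 respond to injury and stress.

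The members were chosen by results of these data that were already known. The measured values known to have been in view are the low Nr4a3 of WT obese mice against WT lean mice and the low Nr4a1 of KO lean mice against WT lean mice. For the members, every comparison that holds the WT lean mice is therefore given as a description, with no p, and from counts of members past the thresholds of a call nothing is read there. The other comparisons are given with their test, although it is not known whether their values played a part in the choice. Of the members 9 were listed in all 6 tables and passed the filter on low values (a mean of at least 5 normalized counts) in each. Nr4a3 was listed in 2 tables. It passed in the table of WT obese and WT lean mice, where 1 lean mouse carried most of its reads, and did not pass in that of KO obese and WT obese mice, where its mean was 1.98 normalized counts.

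Between 15992556 and 43841273 reads per mouse fell on listed genes, with a median of 24298307.5. Normalized counts are reads divided by a size factor that was set for each table of 14 mice, so that groups are compared only within a table. Cmklr1 had 30.1 to 148 normalized counts in WT mice and 5.08 to 24.9 in KO mice, and the genotypes did not overlap. All 6 hepatocyte markers were listed in every table, with summed counts of at least 776245 per mouse. Of the acinar pancreas markers, the sum was at most 18.6 in every mouse with each group read from 1 table. The summed heat shock genes differed with the number that opens a mouse's identifier, a number whose meaning the labels do not give. The cut between numbers up to 15 and from 19 was noticed in these same sums, so their separation at it is only a description. In WT lean mice the sums were 13179 to 15283 for numbers up to 15 (2 mice) and 21819 to 35033 for numbers from 19 (5 mice). The ranges of the 2 sets were also apart in KO lean, WT obese and WT obese+RvE1 mice, and they overlapped in KO obese and KO obese+RvE1 mice. The summed gluconeogenic and fasting genes were lower for numbers up to 15, with ranges apart, in KO lean, WT obese, KO obese and WT obese+RvE1 mice. In WT obese+RvE1 mice their sums were 102247 to 135372 for numbers up to 15 and 238310 to 318156 for numbers from 19. In WT lean and KO obese+RvE1 mice the ranges of these sums overlapped.

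The genes lie on 8 chromosomes of mm10 (GRCm38). In the GENCODE M21 annotation Nr4a1 spans chr15:101254269-101274795 on the plus strand, Nr4a2 chr2:57106830-57124003 on the minus strand and Nr4a3 chr4:48045153-48086447 on the plus strand. Fos spans chr12:85473890-85477273 (plus), Fosb chr7:19302696-19310051 (minus) and Junb chr8:84974484-84978718 (minus). Atf3 (chr1:191170296-191218039) and Btg2 (chr1:134075170-134079120) are both on the minus strand of chromosome 1. Ier2 spans chr8:84661331-84662852 (minus). All 10 members are protein coding.

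Promoter windows of 300 bases, 250 before and 50 after the start of the gene in RefSeq (GRCm38.p6), were matched for 8 members by symbol, the exceptions being Egr1 and Ier2. The RefSeq start is the GENCODE one for Nr4a2 and Fos, lies inside the GENCODE span for Nr4a1, Nr4a3, Fosb and Atf3, and lies before it for Junb and Btg2. Shown are the windows of the 3 Nr4a receptors, whose levels lead the comparisons below, of Atf3 and Btg2, and of Fos, a gene whose promoter has long served as a model. Capitals mark matches on either strand to the cAMP response element TGACGTCA, to its core TGACG and to the TATA motif TATAAA.
Nr4a1, chr15:101266596-101266895, plus: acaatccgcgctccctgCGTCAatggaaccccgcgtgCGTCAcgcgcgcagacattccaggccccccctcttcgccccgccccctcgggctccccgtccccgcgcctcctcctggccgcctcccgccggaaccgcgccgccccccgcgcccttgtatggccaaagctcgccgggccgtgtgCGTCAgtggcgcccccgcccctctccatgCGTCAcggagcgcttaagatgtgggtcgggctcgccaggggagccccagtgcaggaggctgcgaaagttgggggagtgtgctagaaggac
Nr4a2, chr2:57123954-57124253, minus: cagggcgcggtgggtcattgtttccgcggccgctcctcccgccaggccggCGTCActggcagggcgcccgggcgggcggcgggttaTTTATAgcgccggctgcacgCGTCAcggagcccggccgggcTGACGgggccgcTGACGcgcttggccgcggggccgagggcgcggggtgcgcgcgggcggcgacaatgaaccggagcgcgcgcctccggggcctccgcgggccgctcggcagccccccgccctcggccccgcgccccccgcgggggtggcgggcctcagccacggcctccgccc
Nr4a3, chr4:48045055-48045354, plus: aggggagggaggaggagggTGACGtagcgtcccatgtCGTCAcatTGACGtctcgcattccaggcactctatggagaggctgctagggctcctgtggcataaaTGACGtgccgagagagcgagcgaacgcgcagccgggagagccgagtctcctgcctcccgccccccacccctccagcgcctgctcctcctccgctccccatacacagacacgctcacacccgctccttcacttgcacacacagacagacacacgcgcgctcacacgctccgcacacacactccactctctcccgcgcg
Fos, chr12:85473640-85473939, plus: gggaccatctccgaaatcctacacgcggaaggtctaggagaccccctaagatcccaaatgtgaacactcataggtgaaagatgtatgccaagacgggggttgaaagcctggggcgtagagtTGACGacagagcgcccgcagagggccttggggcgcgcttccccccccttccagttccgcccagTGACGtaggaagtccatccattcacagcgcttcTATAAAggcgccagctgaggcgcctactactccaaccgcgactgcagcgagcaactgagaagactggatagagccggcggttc
Atf3, chr1:191183284-191183583, minus: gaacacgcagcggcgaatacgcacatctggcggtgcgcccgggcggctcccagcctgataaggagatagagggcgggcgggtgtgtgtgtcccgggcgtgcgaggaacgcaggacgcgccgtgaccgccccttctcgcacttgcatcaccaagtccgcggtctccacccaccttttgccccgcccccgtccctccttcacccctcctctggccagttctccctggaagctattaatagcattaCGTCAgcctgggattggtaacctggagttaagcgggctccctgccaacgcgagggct
Btg2, chr1:134079106-134079405, minus: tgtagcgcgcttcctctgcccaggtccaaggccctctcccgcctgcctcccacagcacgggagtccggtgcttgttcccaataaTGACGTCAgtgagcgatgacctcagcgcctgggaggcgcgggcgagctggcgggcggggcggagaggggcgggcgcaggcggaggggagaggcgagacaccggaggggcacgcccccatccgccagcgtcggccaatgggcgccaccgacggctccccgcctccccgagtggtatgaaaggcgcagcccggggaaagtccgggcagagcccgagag

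All 8 windows held the core, which 20.9% of 32544 RefSeq windows of the same length hold. The 3 Nr4a windows held 4 copies each, Fos and Btg2 held 2, and Fosb, Junb and Atf3 held 1. The full element stood only in Btg2, where it overlaps both of that gene's cores. Of all windows 1.80% hold it. TATAAA stood in Nr4a2, Fos and Junb (13.6% of all windows). Neither the AP-1 motif TGANTCA (7.79% of all windows), the NR4A motif AAAGGTCA (1.52%), the EGR motif GCGTGGGCG (0.618%) nor the CArG box (1.64%) was found in any of the 8 windows. A match is a run of letters and no measured site, and windows without one say nothing about sequence farther away.

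Scaled to the length of the merged exons in kilobases and to 1000000 reads of each mouse on the genes that all tables list, the members spanned several orders of magnitude over the 42 mice. Junb was the highest, with a median of 93.6 (16.8 to 212 over mice). Ier2 followed at 37.3, Btg2 at 23.2 and Egr1, which lies on the plus strand of chromosome 18 from 34859823 to 34864984, at 20.6. A lower tier held Fos at 3.70, Nr4a1 at 2.24 and Atf3 at 2.23. Nr4a2 stood at 0.42 and Fosb at 0.073. Nr4a3 was the lowest, with a median of 0.016 over the 21 mice in whose tables it was listed, and a highest value of 3.45. Not every step in this order held mouse by mouse. Junb was above Ier2 in 40 of 42 mice, Egr1 above Fos in 41, and both Atf3 above Nr4a2 and Nr4a2 above Fosb in 40. Btg2 was above Egr1 in 27 of 42, Nr4a1 above Atf3 in 21 of 42 and Fosb above Nr4a3 in 15 of 21, so that these neighbours did not differ beyond their spread.

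Inside a group the members varied far more than most genes. The median SD of the 9 members on the log2 scale was 1.30 in WT lean, 1.21 in KO lean, 0.96 in WT obese, 1.34 in KO obese, 0.91 in WT obese+RvE1 and 2.04 in KO obese+RvE1 mice. Over all tested genes the median SD lay between 0.24 and 0.37 in the 6 groups. In KO obese+RvE1 mice the SD of Atf3, a stress-induced factor of the ATF/CREB family, was 2.74, and 0.0352% of genes had a larger one. For Nr4a1 in WT lean mice that share was 0.261%, and for Egr1 in KO lean mice 0.0998%. Nr4a2 varied less than Nr4a1 in every group. The SD of Nr4a2 was 0.32 in WT obese mice, where 50.1% of genes had a larger one. In WT lean mice it was 1.57, where 0.414% of genes had a larger one, against 0.54 without mouse 19R.

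**Figure D1:**
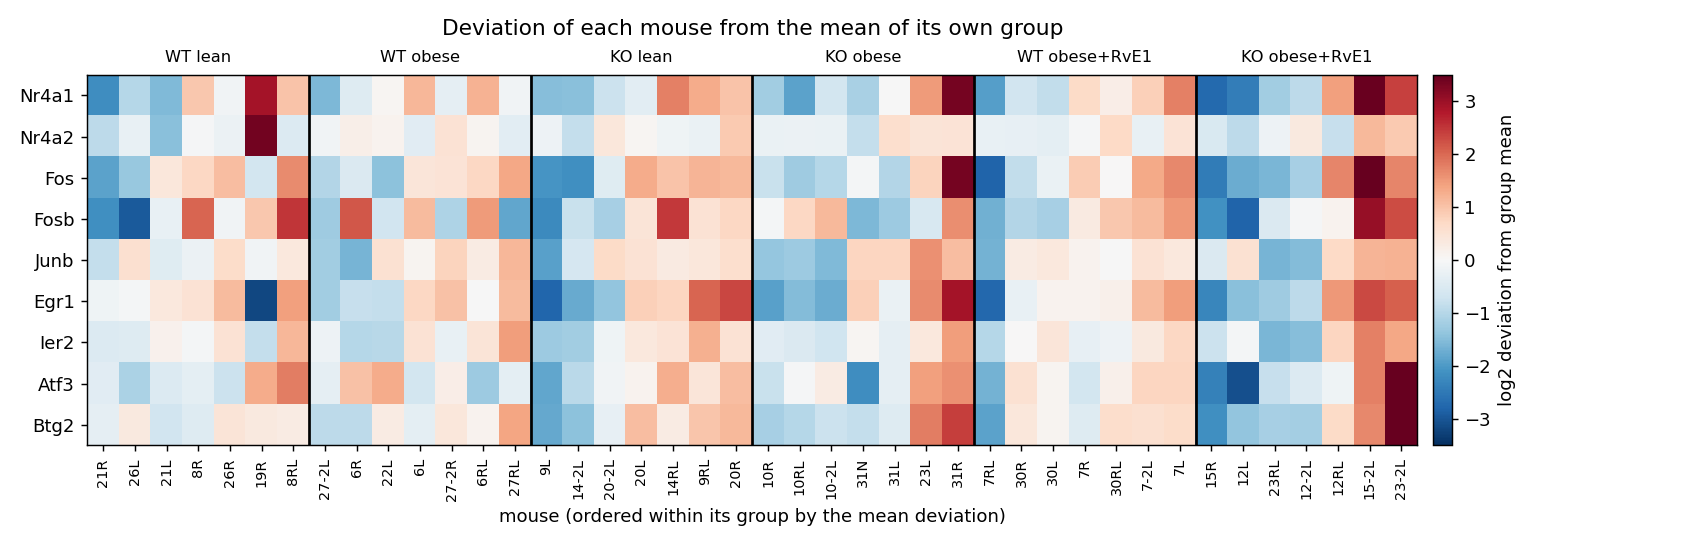
Deviation of each of the 42 mice (columns, ordered inside their group) from its group mean on the log2 scale, for the 9 members in all tables (rows). Red is above and blue below the mean, values past the end of the scale take its last colour, and in 22 of the 42 columns at least 8 of 9 members lie on the same side of the mean, as in KO obese+RvE1 mouse 15-2L with all 9 above it.

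The members were high and low in the same mice. With group means removed, the median Pearson's r over the 36 pairs of the 9 members was 0.637 across 42 mice (median Spearman's rho 0.635), given as a description since each mouse enters every pair with 1 library. Of the 36 pairs 24 had r above 0.5 and 0 were below 0. Without the 2 mice of the most extreme mean deviation the median was 0.543, over the 28 vehicle mice it was 0.525, and without mouse 19R, described below, it was 0.664. Fos and Egr1 had the closest relation (r = 0.872), followed by Fos and Ier2 (0.866). Fosb and Junb, which both dimerize in AP-1, were at 0.126. Nr4a2 and Egr1 were at 0.0033 (rho 0.208), a value set by 19R, since without this mouse their r was 0.423 (rho 0.377). Btg2, an antiproliferative protein that recruits an mRNA deadenylase, had the highest median r with the other members (0.770), Fos had 0.733 and Nr4a2 the lowest (0.306). Nr4a1 was closer to Fos (0.818) than to its relative Nr4a2 (0.602).

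**Figure D2:**
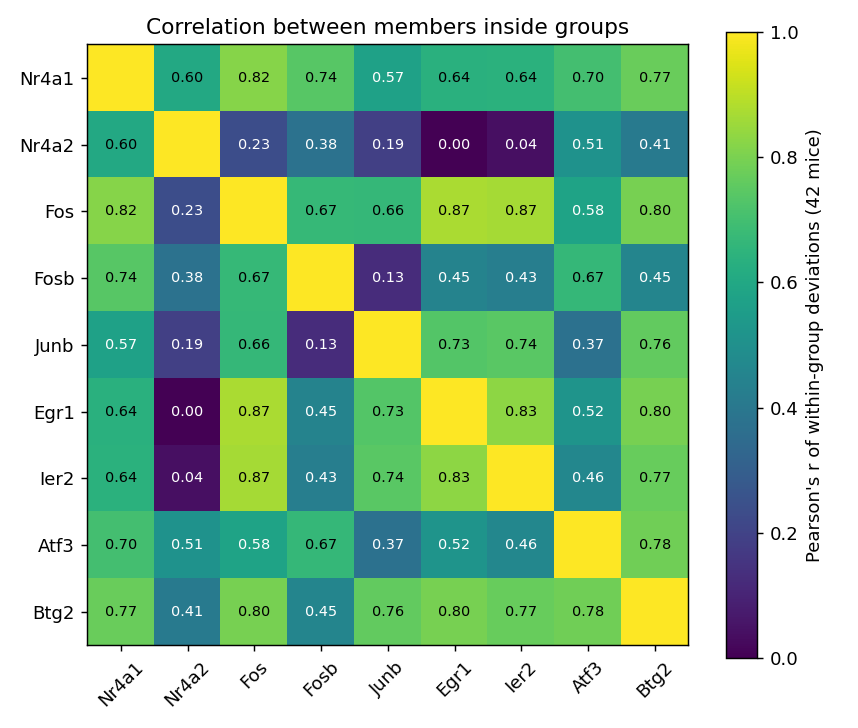
Pearson's r of within-group deviations between the 9 members over 42 mice, with group means removed. Fos, Egr1, Ier2, Btg2 and Junb form a block with r between 0.665 and 0.872, while the row of Nr4a2 runs from 0.0033 to 0.602, and from 0.253 to 0.596 without mouse 19R.

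The genes outside the members whose deviations most resembled the mean of the 9 members were named by rank among 12739 genes. Jun, the main partner of Fos in AP-1, came first (r = 0.906, rho = 0.890, 42 mice). Gdf15, a secreted stress factor, had r = 0.828, Zfp36, which speeds the decay of AU-rich mRNAs, 0.827 and Gadd45a, a growth arrest gene, 0.794. Dusp6, a phosphatase of ERK, had 0.753 and Efna1, an ephrin ligand, 0.752. Csrnp1 (0.730), the mitochondrial carrier Slc25a25 (0.728), the pseudokinase Trib1 (0.715) and the cytoplasmic actin Actg1 (0.715) closed the 10. Above 0.5 were 43 genes (0.338%).

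Of 54 other immediate early and primary response genes, 47 could be compared, and their median r with the members was 0.380, against 0.015 over all genes. Of these 12 exceeded 0.5, among them Dusp1 (0.709), Ppp1r15a (0.675) and Sik1 (0.667), while Ier5l was at -0.34. Srf had 0.690, the highest of 17 upstream factors, whose median was 0.047. Genes of signalling kinases and their subunits had a median of 0.034 and partners of the NR4A receptors one of -0.025. Igfbp1, a fasting gene of the hepatocyte, had 0.692, and the clock gene Bhlhe40 0.550. Among markers of other cells, the neutrophil genes S100a8 and S100a9 had 0.401 and 0.438, with a median (0.419) above that of the other immediate early genes, and the 5 Kupffer cell genes had a median of 0.222. The part of these cells in the members' values was not tested. The 10 heat shock genes had a median of -0.011.

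Single mice carried much of each group's sum. WT lean mouse 19R held 5906 of the Nr4a1 normalized counts of its group, 56.0% of the sum, against 174 to 1577 in the other 6 mice. It held 936 for Nr4a2, 71.0% of the sum, against 31.9 to 88.3. For Nr4a3 it held 456, 88.8% of the sum, against 1.06 to 23.8. All 3 receptors were thus above every other WT lean mouse in 19R, while Egr1, a zinc finger factor, and Ier2 were below every other one. Egr1 stood at 411 against 3383 to 10112 and Ier2 at 1179 against 1527 to 4688. Fos (246), Fosb (26.8), Junb (5249), Atf3 (421) and Btg2 (2979) lay inside the range of the others. Of the 48 other immediate early genes tested in that table, 25 were above and 6 below all other WT lean mice in 19R, where 18.7% of all genes were above and 17.5% below. Dusp4, a MAP kinase phosphatase, stood at 1214 against 37.5 to 103, Sik1, a kinase induced by cAMP, at 5092 against 644 to 1317 and Fosl2, an AP-1 subunit, at 3090 against 323 to 1017. Klf10 stood at 224 against 484 to 2025. Fold changes against WT lean mice are given below also without 19R.

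**Figure D3:**
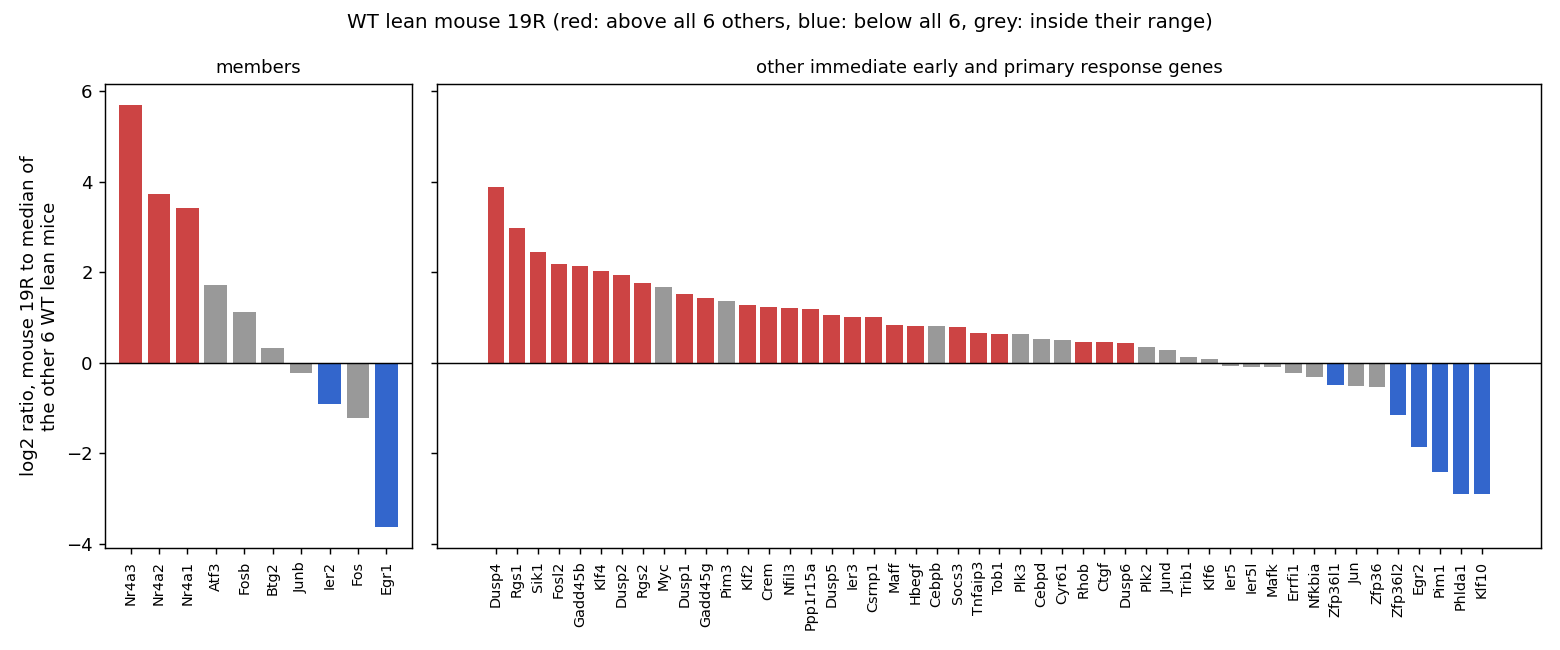
Normalized count of WT lean mouse 19R over the median of the 6 other WT lean mice (log2), for the 10 members and for the other immediate early genes of the same table. The Nr4a receptors stand above all 6 others and Egr1 and Ier2 below, and 25 of 48 other genes are above.

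Other mice stood apart in other members. WT lean mouse 8RL was the highest of its group in Fos (1198), Fosb (81.0), Egr1 (10112), Ier2 (4688) and Atf3 (597), and of 48 other immediate early genes 3 were above and 9 below all others in it, where 14.5% of all genes were above and 12.9% below. KO lean mouse 9L was below all other KO lean mice in 7 of 9 members, with Egr1 at 222 against 445 to 7626, and in 22 of 48 other immediate early genes, where 11.2% of all genes were below. KO obese mouse 31R was above its group in 7 of 9 members and in 16 of 48 other immediate early genes, where 14.8% of all genes were above. Its Fos was 1490 against 61.1 to 250 and its Egr1 11672 against 408 to 4839.

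Mouse 7RL of the WT obese+RvE1 group was below the other 6 in 8 of 9 members, the exception being Nr4a2. It was also below them in 22 of 47 other immediate early genes, where 13.4% of all genes were below. Its Junb was 880 against 2719 to 3936 and its Fos 28.9 against 116 to 670. A pair of KO obese+RvE1 mice stood apart in unlike ways. Mouse 15-2L was above its group in 6 of 9 members with 16.2% of all genes above, while of 49 other immediate early genes 1 was above and 5 were below. Its Fos was 3138 against 48.7 to 893. Mouse 23-2L was above it in Junb, Atf3 and Btg2 and in 40 of 49 other immediate early genes, where 20.6% of all genes were above. Atf3 was 7150 in it against 23.4 to 696 and Btg2 20489 against 394 to 5621. In 23-2L the summed neutrophil markers were 893 (28.4 to 116 in the other 6 mice) and the summed gluconeogenic genes 330092 (100873 to 158899). Of the other 6 mice, 5 have identifier numbers up to 15. The part of these genes in the values of 23-2L was not tested.

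The effect of the obesogenic diet in WT mice was the first comparison. All 10 members had a lower mean on the log2 scale in WT obese than in WT lean mice, and 3 of them passed the thresholds of a call (BH-adjusted p under 0.1 in limma and a fold change above 1.5). Of the 14012 genes tested 3.8% were called, 2.26% higher and 1.53% lower. Since these values were in view when the members were chosen, nothing is read from the count. The median log2 fold change of the members was -1.14, and that of all genes 0.00.

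Nr4a1 ran from 174 (mouse 21R) through a median of 721 to 5906 (19R) normalized counts in WT lean mice. In WT obese mice it ran from 65.8 through 181 to 459. All 7 obese mice lay under the lean median and 3 under the lowest lean mouse, so that the groups overlapped, and the log2 fold change was -1.99 (SE 0.65). Nr4a2 ran from 31.9 through 75.0 to 936 in lean and from 25.7 through 36.6 to 48.7 in obese mice. Again all 7 obese mice lay under the lean median, and the log2 fold change was -1.36 (SE 0.52). Nr4a3 had a median of 8.18 in lean mice, with a lowest value of 1.06 (8R) and a second highest of 23.8 (26L) under the 456 of 19R. In obese mice it ran from 0 (27-2L and 6RL) through 0.88 to 2.50, and 4 of the 7 lay under every lean mouse. Its log2 fold change was -2.86 (SE 0.88), and since 1 is added to each count before the log is taken, so small a gene's difference is shrunk. With 4 added it was -1.95, and with edgeR on the recovered reads -5.90.

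Atf3 ran from 78.7 through 130 to 597 normalized counts in WT lean and from 21.6 through 42.4 to 133 in WT obese mice. Of the 7 obese mice 5 lay under every lean mouse, and the log2 fold change was -1.67 (SE 0.47). Btg2 ran from 1462 through 2846 to 3182 in lean and from 578 through 1197 to 2859 in obese mice. It was the member whose groups were farthest apart, with 6 obese mice under every lean mouse and the seventh, 27RL, at 2859, and the log2 fold change was -1.09 (SE 0.31). Egr1 had a median of 4837 in lean and 1613 in obese mice (log2 fold change -1.20, SE 0.58). All 7 obese mice lay under the lean median, and none lay under lean mouse 19R (411). Fos (-0.95, SE 0.53), Fosb (-0.96, SE 0.83), Junb (-0.68, SE 0.38) and Ier2 (-0.71, SE 0.36) had smaller log2 fold changes, and their groups overlapped.

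Without mouse 19R the log2 fold change was -1.51 for Nr4a1, -2.02 for Nr4a3, -1.46 for Atf3 and -1.03 for Btg2. It was -0.80 for Nr4a2 and -1.73 for Egr1, and for Fos (-1.05), Fosb (-0.81), Junb (-0.70) and Ier2 (-0.85) it changed little. The count of members past the thresholds was 0 without any 1 of WT obese 27-2L, 6L or 6RL and 1 without WT lean 26L or 26R or WT obese 6R. With 1 mouse left out in turn, the log2 fold change lay between -3.32 and -2.02 for Nr4a3, between -1.89 and -1.38 for Atf3 and between -1.32 and -0.93 for Btg2. Modelling the identifier number as a random block left 0 members past the thresholds, and 242 genes in place of 532. Inside the identifier numbers, all 10 members were lower in obese mice both among numbers up to 15 (3 obese and 2 lean mice, median difference -1.52) and among numbers from 19 (4 and 5 mice).

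**Figure D4:**
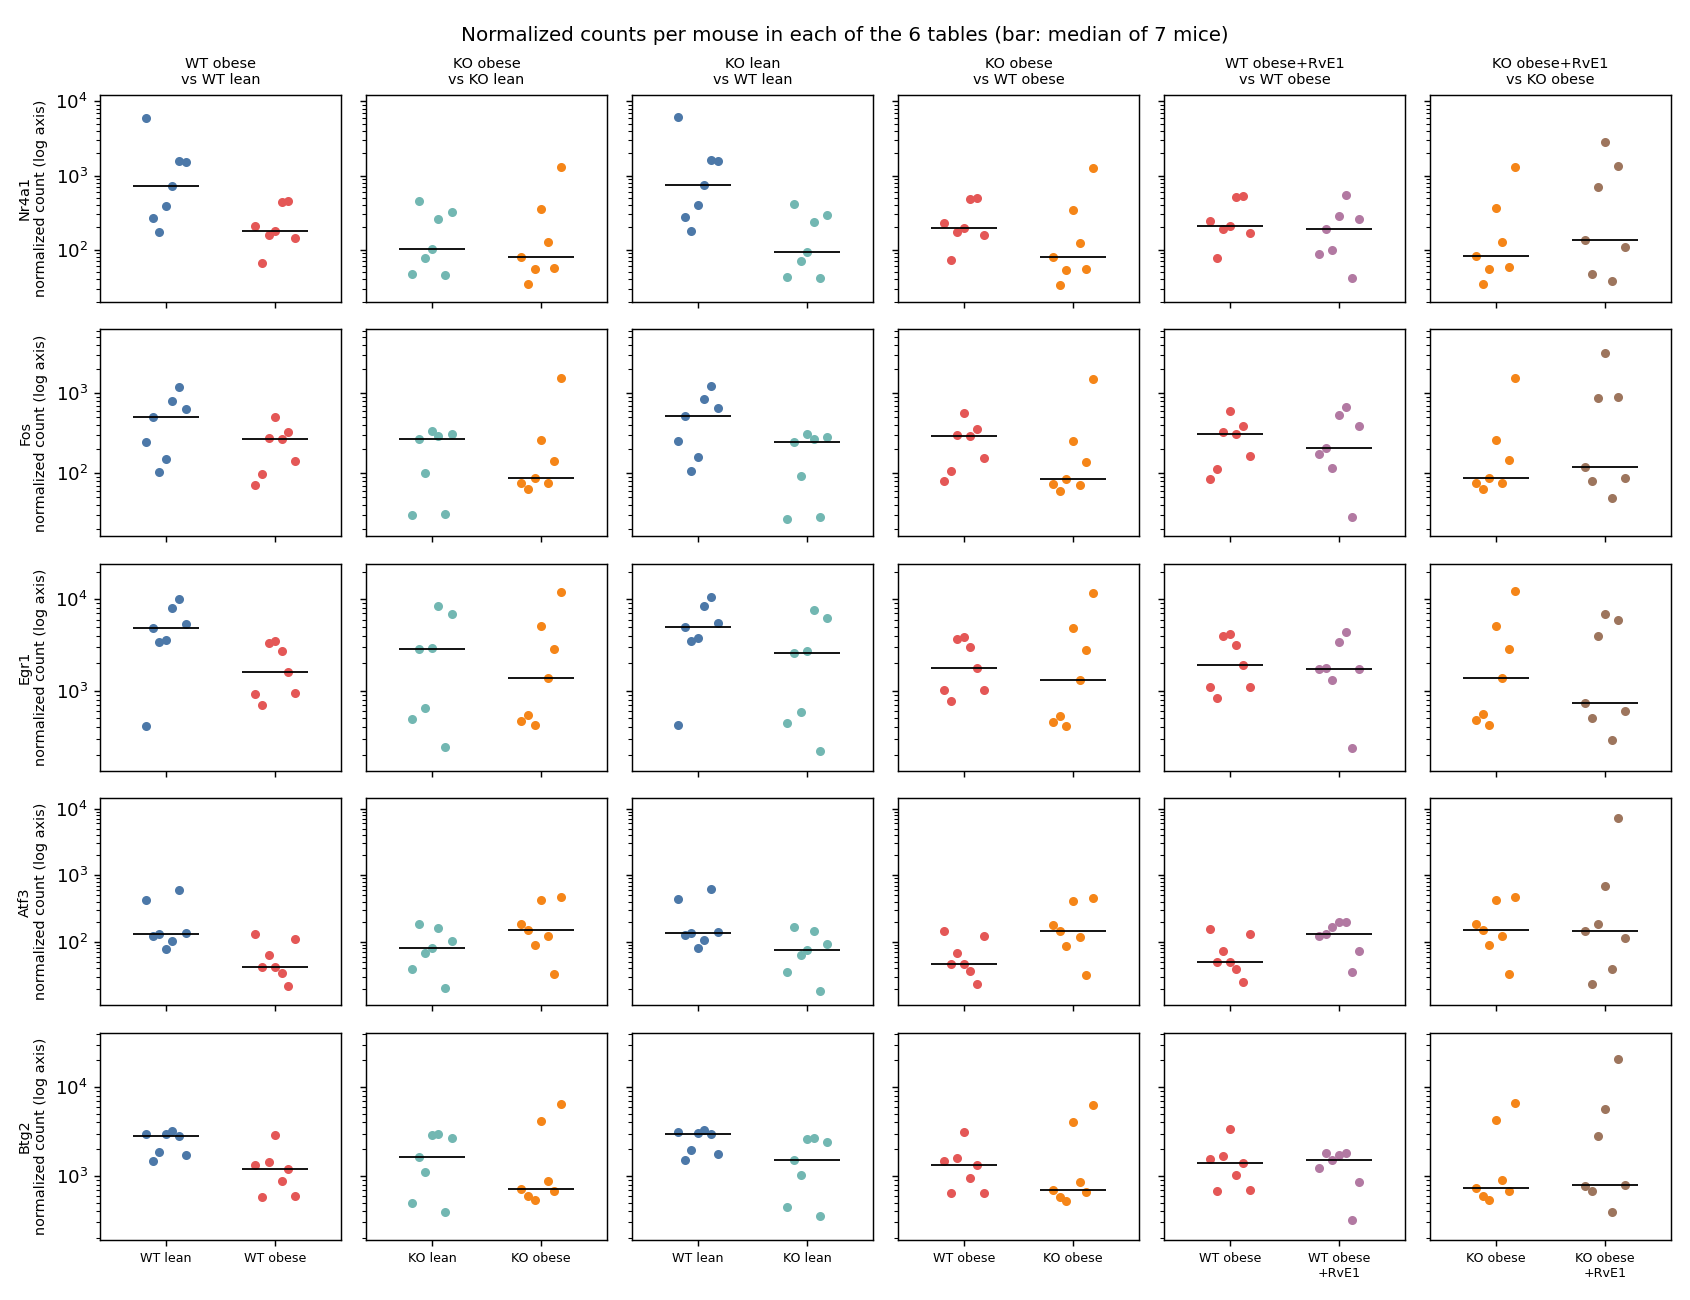
Normalized counts (log axis) of Nr4a1, Fos, Egr1, Atf3 and Btg2 in every mouse of the 6 tables, 1 panel per gene and table, with 7 points per group and a bar at the group median. Points of the compared groups overlap in every panel, and the widest spread inside a group among these 5 genes is that of Atf3 in KO obese+RvE1 mice, from 23.4 to 7150.

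The response genes around the members were read from lists. Of 48 other immediate early genes tested, 0 were called higher and 2 lower in WT obese mice. Dusp6 had a log2 fold change of -1.12 and Crem one of -1.18, and the median of the list was -0.28. Among 17 upstream factors Mef2d was called lower (-0.66). None of 14 genes of signalling kinases and their subunits, 10 heat shock genes or 7 partners of the receptors was called. Igfbp1 was the one gluconeogenic or fasting gene called lower of 9 tested (-1.47). Among 14 clock genes Per3 (1.48) and Tef (0.69) were called higher and Clock (-0.70) and Npas2 (-1.93) lower. Of the cell type markers, Cfd of adipocytes was called higher (4.34) and Hgf of stellate cells lower (-0.66), and no marker of hepatocytes, Kupffer cells, neutrophils, sinusoidal endothelium or lymphocytes was called. Without 19R the calls of Crem (-0.98), Igfbp1 (-1.32) and Npas2 (-1.91) were lost. Called only without 19R were the immediate early gene Tnfaip3 (0.68) and the clock genes Per2 (1.05) and Arntl (-1.49). The part of the listed genes in the members' values was not tested.

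Loss of ChemR23 on the lean diet was compared next, with the same WT lean mice as the reference. All 9 members tested had a lower mean in KO lean mice, and 2 of them passed the thresholds of a call. Of 13031 genes 6.65% were called, 3.94% higher and 2.7% lower, and nothing is read from the count, since the Nr4a1 values were in view. The median log2 fold change of the members was -1.36, and that of all genes was 0.00.

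Nr4a1 ran from 181 through a median of 753 to 6143 normalized counts in WT lean mice and from 41.7 through 93.1 to 411 in KO lean mice. All 7 KO mice lay under the WT median and 4 under every WT mouse. The log2 fold change was -2.76 (SE 0.72). It was -2.27 without 19R. Atf3 ran from 82.0 through 135 to 620 in WT and from 18.6 through 74.6 to 166 in KO mice, with 4 KO mice under every WT mouse. Its log2 fold change was -1.37 (SE 0.51), and -1.16 without 19R. The count of members past the thresholds was 4 without WT lean 26L or KO lean 20R, 2 without WT lean 21R or KO lean 14RL, and 1 without any other single mouse.

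Fos ran from 108 through 521 to 1246 in WT lean and from 27.2 through 247 to 306 in KO lean mice (log2 fold change -1.68, SE 0.66), with all 7 KO mice under the WT median. Btg2 ran from 1517 through 2960 to 3325 and from 355 through 1492 to 2702, with 4 KO mice under every WT mouse (-0.98, SE 0.42). Nr4a2 (-1.20, SE 0.54), Fosb (-1.69, SE 0.84) and Egr1 (-1.36, SE 0.81) had groups that overlapped more. Junb (-0.25, SE 0.36) and Ier2 (-0.53, SE 0.38) had the smallest differences, and in Junb 5 of 7 KO mice lay above the WT median. Without 19R the log2 fold change was -1.79 for Fos, -0.93 for Btg2, -0.64 for Nr4a2, -1.53 for Fosb, -1.89 for Egr1, -0.27 for Junb and -0.67 for Ier2. A fit in which the identifier number was a random block called 0 members and 3 genes in all. Among numbers up to 15 (4 KO and 2 WT mice) the median difference of the members was -2.37 and all 9 were lower in KO mice, while among numbers from 19 (3 and 5 mice) it was -0.54 and 8 were lower. Nr4a1 was -3.70 in the former and -2.41 in the latter.

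Of 48 other immediate early genes 8 were called lower and 0 higher in KO lean mice. They included Dusp6 (-1.17), Zfp36l1 (-0.82), Sik1 (-1.29) and Fosl2 (-1.36), and the list's median was -0.28. Without 19R, in which Sik1 and Fosl2 were high, 7 of the 8 were still called, with Sik1 at -0.95 and Fosl2 at -1.02, and Dusp1 was the call that was lost (-0.87). Egr2 (lower, -1.81) and Rgs2 (higher, 0.63) were called only without 19R. With all mice, the coactivators Crebbp (-0.69) and Ep300 (-0.59), which bind CREB, were the upstream factors called lower of 17. Among the partners of the receptors the corepressor Ncor1 was called lower (-0.60). Without 19R the upstream factor Mkl2 was called lower too (-0.74). Bhlhe40 was the one clock gene called (-1.26). Kupffer cell markers moved the other way. All 5 tested were called higher, among them Cd5l (1.32) and Timd4 (0.77), and their summed counts were 2320 to 5490 in WT lean and 5624 to 12830 in KO lean mice, with Adgre1 not listed. The median r of these markers with the members inside groups was the 0.222 given above, and their part in the members' values was not tested.

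The diet comparison in KO mice does not hold the WT lean mice. None of the 9 members was called between KO obese and KO lean mice, and 0 had an unadjusted p under 0.05. Of 14213 genes 10.4% were called, 4.97% higher and 5.42% lower, and edgeR and DESeq2 called 0 members as well. Of the members 3 were higher and 6 lower on average (median -0.07 on the log2 scale), while with edgeR and DESeq2 on the recovered reads 6 were higher, Nr4a1, Egr1 and Btg2 having turned.

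Fosb, an AP-1 subunit, ran from 0 (mouse 9L) through 6.04 to 27.6 normalized counts in KO lean and from 2.94 through 10.3 to 35.6 in KO obese mice. The log2 fold change was 1.24 (SE 0.67, limma adjusted p = 0.21). Atf3 ran from 20.5 through 82.3 to 183 in KO lean and from 32.9 through 149 to 466 in KO obese mice, with 3 obese mice above every lean mouse. Its log2 fold change was 1.01 (SE 0.55, limma adjusted p = 0.216). The calls turned on single mice, since Fosb was called without KO lean 14RL and Atf3 without KO obese 31N.

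Nr4a1 ran from 46.0 through 103 to 453 in KO lean and from 34.1 through 81.1 to 1314 in KO obese mice, of which 31R held 64.8% of the sum. Its log2 fold change of -0.05 (SE 0.73, limma adjusted p = 0.969) covers a wide range in either direction. Fos (0.16, SE 0.72), Egr1 (-0.07, SE 0.87), Btg2 (-0.16, SE 0.61) and Junb (-0.30, SE 0.53) were as imprecise. Nr4a2, the member with the smallest spread, had -0.10 (SE 0.27). The 3 KO obese mice of identifier number 10 had Junb between 1466 and 1780 against 7189 to 12962.5 in the other 4 in the table with WT obese mice, and Egr1 between 408 and 533 against 1317 to 11672. Their summed neutrophil markers were 60.4 to 157 against 269 to 1100. Inside numbers up to 15 the median difference of the members between KO obese and KO lean mice was -0.65, and inside numbers from 19 it was 0.25.

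Among 48 other immediate early genes 4 were called higher and 1 lower in KO obese mice. The higher ones included Dusp5 (1.05, limma adjusted p = 0.06), Egr2 (1.66, adjusted p = 0.0701) and Fosl2 (0.84, adjusted p = 0.0701), and Pim3 was the lower one (-0.90, adjusted p = 0.0761). The upstream factors Mkl2 (0.71) and Crebbp (0.63) were called higher. Among the Kupffer cell markers 4 of 5 and among the lymphocyte markers 4 of 6 were called lower, the former with a median of -0.92. Clec4g of sinusoidal endothelium (-0.73) and Des of stellate cells (-0.59) were called lower, and Cfd (3.01) and Car3 (2.06) of adipocytes higher. Of 14 clock genes Per2 (1.31), Per3 (1.11) and Bhlhe40 (1.23) were called higher and Npas2 lower (-1.47). The part of these genes was not tested.

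The difference between the diet effects of the genotypes was formed as the KO minus the WT log2 fold change. It was largest in Atf3 (2.69, SE 0.78), followed by Fosb (2.20, SE 1.13), Nr4a1 (1.94, SE 1.05) and Nr4a2 (1.25, SE 0.62). All 9 values were above 0. Of 13924 genes 0.00718% passed at an adjusted p under 0.1, and since WT lean mice enter, the values are a description. Without 19R the value was 2.47 for Atf3, 2.05 for Fosb, 1.45 for Nr4a1, 0.69 for Nr4a2 and 1.66 for Egr1. The order depended on the fit, since edgeR gave 3.27 for Nr4a1 and 2.28 for Nr4a2, and library quality weights 0.87 for Nr4a1 and 1.51 for Fosb.

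**Figure D5:**
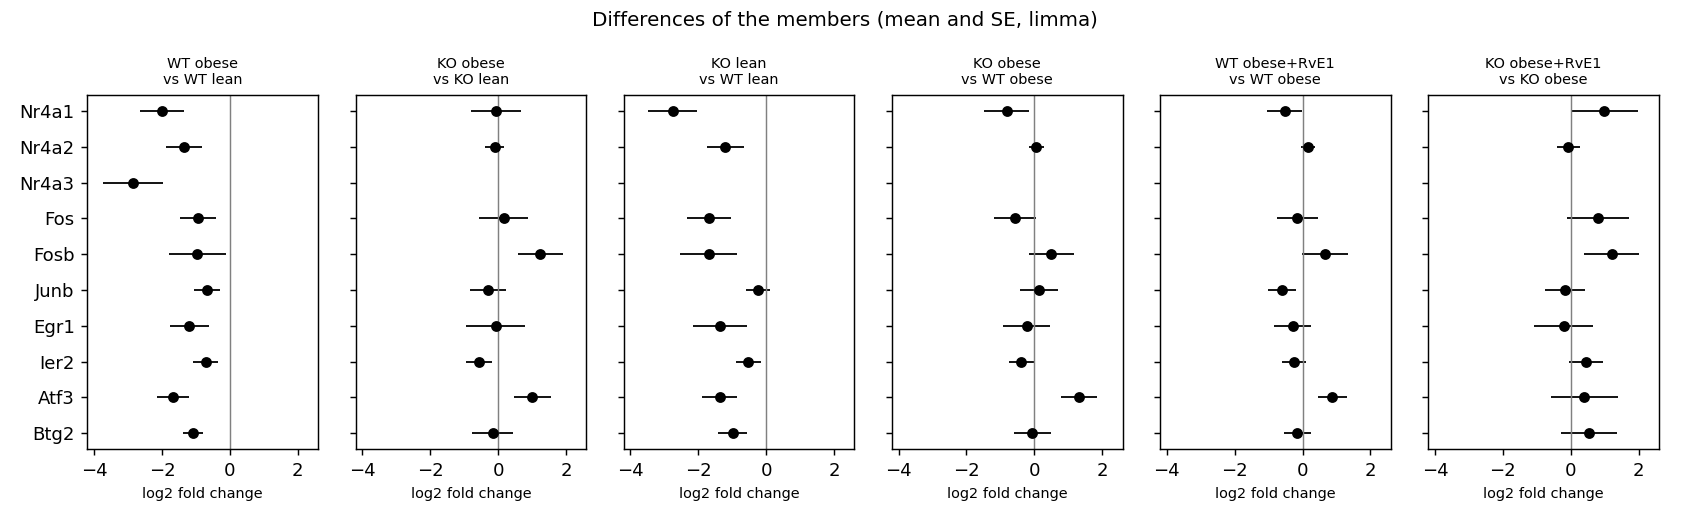
Log2 fold change of each member with its SE from limma in the 6 comparisons. In the 2 comparisons with WT lean mice all points lie left of 0, and in the other 4 they lie on both sides.

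Genotype on the high fat diet was compared in the same way. None of the 9 members tested was called between KO obese and WT obese mice, where 0.0141% of 14162 genes were called. Atf3 was the 1 member with an unadjusted p under 0.05, as were 319 genes in all, and edgeR and DESeq2 called 0 members. Atf3 ran from 23.8 through 46.8 to 145 normalized counts in WT obese mice and from 31.7 through 144 to 448 in KO obese mice. Of the 7 KO mice 6 lay above the WT median and 3 above every WT mouse. The log2 fold change was 1.32 (SE 0.52, limma adjusted p = 1.00). It was 1.43 among identifier numbers up to 15 and 1.24 among those from 19, with 3 and 4 mice of each genotype.

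The remaining members differed by less than 2 SEs. Nr4a1 ran from 72.7 through 199 to 506 in WT obese and from 33.0 through 79.0 to 1264 in KO obese mice (-0.82, SE 0.67). In it 3 KO mice lay under and 1 above every WT mouse. Fos (-0.58, SE 0.63), Ier2 (-0.38, SE 0.38), Egr1 (-0.23, SE 0.69) and Btg2 (-0.06, SE 0.55) were lower on average and Fosb (0.50, SE 0.67), Junb (0.13, SE 0.55) and Nr4a2 (0.06, SE 0.23) higher. The sign of Nr4a1, Fos, Egr1 and Btg2 depended on the test, since with edgeR and DESeq2 on the recovered reads all but Ier2 of the 9 were positive. Among identifier numbers up to 15 the difference was -2.69 for Nr4a1, -1.92 for Egr1 and -1.80 for Fos, and among those from 19 it was 0.59, 1.04 and 0.34. Nr4a3, listed but under the filter, ran from 0 through 0.98 to 2.74 in WT obese and from 0 through 3.38 to 5.05 in KO obese mice. Neutrophil markers had a median log2 fold change of 1.70 with 0 of 5 called, and their part was not tested.

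RvE1 was compared with vehicle in obese WT mice. Limma called 0 of 9 members and 0 of 13085 genes (0%), and 0 members and 795 genes had an unadjusted p under 0.05. DESeq2 called 15 genes and edgeR 1, with no member among them. Atf3 ran from 25.3 through 49.7 to 155 normalized counts in WT obese and from 35.9 through 130 to 196 in WT obese+RvE1 mice. Of the 7 treated mice 6 lay above the vehicle median and 3 above every vehicle mouse, and the log2 fold change was 0.88 (SE 0.42, limma adjusted p = 0.837). Junb ran from 1352 through 5064 to 9260 in vehicle and from 880 through 3361 to 3936 in treated mice. All 7 treated mice lay under the vehicle median and 1 under every vehicle mouse (-0.60, SE 0.42, limma adjusted p = 0.917). Nr4a1 ran from 77.2 through 213 to 539 and from 41.7 through 189 to 550 (-0.52, SE 0.52). Egr1 had medians of 1892 and 1724 (-0.29, SE 0.54) and Btg2 of 1405 and 1517 (-0.15, SE 0.40). Fos (-0.16, SE 0.60), Ier2 (-0.25, SE 0.35), Fosb (0.66, SE 0.68) and Nr4a2 (0.16, SE 0.20) filled the rest of the range.

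In KO mice the same question can be asked without ChemR23. The paper names the leukotriene B4 receptor BLT1 as another receptor through which RvE1 may act. Limma called 0 of 9 members and 0 of 14207 genes (0%), with 0 members and 1179 genes at an unadjusted p under 0.05. DESeq2 called 14 genes and edgeR 0, with no member among them. Nr4a1 ran from 34.5 through 82.6 to 1325 normalized counts in KO obese and from 37.9 through 136 to 2811 in KO obese+RvE1 mice (log2 fold change 0.99, SE 0.99, limma adjusted p = 0.786). Atf3 ran from 33.2 through 150 to 470 and from 23.4 through 147 to 7150. The medians of Atf3 were thus close while the treated mean was 1194 against 211, because 23-2L held 85.6% of the treated sum, and the log2 fold change was 0.40 (SE 0.99, limma adjusted p = 0.925), with 2.50 from edgeR and -0.08 from DESeq2, which replaces extreme counts. Btg2 had medians of 729 and 782, and 23-2L held 65.0% of its treated sum (0.53, SE 0.82). Fos ran from 63.7 through 88.0 to 1563 and from 48.7 through 121 to 3138 (0.82, SE 0.92), and Fosb from 2.97 through 10.4 to 35.9 and from 2.93 through 26.1 to 228 (1.21, SE 0.81). For all of these the groups overlapped. Neutrophil markers had a median log2 fold change of -1.66, with 0 of 5 called, and the 10 heat shock genes one of -0.41, with 0 called.

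The difference of the RvE1 effects between the genotypes, KO minus WT, was 1.51 (SE 1.20) for Nr4a1, 0.97 (SE 1.17) for Fos and -0.48 (SE 1.15) for Atf3. The sign of Atf3 depended on the fit, since edgeR on the recovered reads gave 1.72. None of 9 members passed (limma adjusted p = 1.00 for each), nor did any of 13059 genes (0%), while 311 genes had an unadjusted p under 0.05. The SEs ran from 0.41 (Nr4a2) to 1.20 (Nr4a1), so that a log2 difference of 1 between the genotypes lay within 2 SEs for every member but Nr4a2.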

How the data were processed

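Livers of 42 mice (6 groups of 7, 1 library per mouse) were sequenced as stranded total RNA. The authors checked reads with FastQC, aligned them to mm10 with Bowtie2, counted them per gene with featureCounts (Subread) and divided them by DESeq2 size factors within each of 6 tables of 14 libraries. The sources used here give no versions, annotation or strand setting, so reads of an overlapping antisense gene cannot be told apart. The deposited signal values are these normalized counts. The deposited tables also hold the authors' own fold changes and p-values, which were not used. Between 20 and 26 names per table are date-like and were kept in the tests but not named.

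Whole reads were recovered from the deposited signal values (100% lay within 0.1 of a whole read), and a mouse read from different tables gave the same reads. Reads per mouse are given in the report, and counting error is largest in genes with few reads, such as Nr4a3 and Fosb. Tests used limma (3.58.1, in R 4.3.3, eBayes with trend) on the log2 of the normalized count plus 1, two-sided, over genes with a mean of at least 5, with Benjamini-Hochberg (BH) adjustment. A call needed an adjusted p below 0.1 together with more than a 1.5-fold change, and for the interactions the adjusted p alone. The procedure was tested on simulated data. Alternatives were other pseudocounts (0.5 and 4), all listed genes in place of the filter, TMM scaling, edgeR (4.0.16) and DESeq2 (1.42.0) on the recovered reads, an adjusted p under 0.05, no fold threshold, library quality weights, the identifier number as a random block, and each mouse left out. A covariate for identifier numbers up to 15 or from 19 was added after the values had been seen, as were the pairwise correlations and the list calls without mouse 19R.

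The members and lists were chosen with earlier results of these data known. Named were all members, the 10 genes most like them inside groups, and up to 4 called genes per list and comparison by smallest adjusted p. Other genes named for a likeness or in single mice, Dusp1, Ppp1r15a, Sik1, Ier5l, Srf, Igfbp1, Bhlhe40, Dusp4, Fosl2 and Klf10 among them, and the mice described singly were chosen after their values were seen. Groups came from the labels, which do not say whether mice shared a litter or cage. A result among the listed genes is not reported here.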

Additional observations from a re-analysis of the deposited data

Results flagged for a closer look

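In 4 of 57 sets of 1 member and 1 group of 7 mice, the highest or lowest mouse stood apart by Dixon's test on the log2 scale, where chance alone is set to flag about 1 in 20. A pair of them came from WT lean mouse 19R, read from the table with KO lean mice. Its Nr4a2 was high at 973 normalized counts, and its Egr1 was low at 428. The others came from WT obese+RvE1 mouse 7RL, with Junb low at 880 and Egr1 low at 236. The cause was not tested.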

How the results depend on the processing

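For WT obese vs WT lean mice 3 members passed the thresholds, a count given as a description like those of each comparison with WT lean mice. DESeq2 gave 5 and 730 genes in all, in place of 532, while an adjusted p under 0.05 (348 genes) and the identifier number as a random block each left 0. With 1 mouse left out in turn the count ran from 0 to 3. For KO obese vs KO lean mice 0 were called, and with 1 mouse left out 0 to 1. For KO lean vs WT lean mice 2 passed, among 866 genes. EdgeR gave 4 (874 genes), library quality weights 5 (1536), an adjusted p under 0.05 left 1 (480), the random block left 0, and the covariate for identifier numbers, added after seeing the data, gave 4 (1090). With 1 mouse left out the count ran from 1 to 4. For diet by genotype 0 members and 1 gene of 13924 passed, library quality weights gave 1 member and 2563 genes, and leaving out 1 mouse gave 0 to 1, with 963 genes in all without WT obese 22L and 1848 without KO lean 20R. The cause of these shifts was not tested. Every other count of members for a comparison stayed within 1.5 times its value, and the fold changes of the members that passed kept their sign in all settings run. Over all genes the random block called 242 in place of 532 in the WT diet comparison, 750 in place of 1476 in the KO one, 3 in place of 866 between lean genotypes and 0 in place of 2 between obese ones. No paired analysis was possible because the labels number no replicates, and of the groups compared only KO obese and KO obese+RvE1 mice share an identifier number, a single one. The low counts of Nr4a3 and Fosb limit their precision, and with SEs of up to 0.99 per comparison, moderate differences of Nr4a1 or Atf3 could not be seen.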
